A study of Mus musculus with 24 samples.

Results

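The end points of an optic vesicle (OV) organoid course were compared: the GFP-positive cells sorted on day 5 against the cells collected on day 0, with 3 libraries in each group, 6 of the 24 libraries of the series. All groups came from Rx-GFP K/I EB5, a single mouse embryonic stem cell (mESC) line in which GFP was knocked in at the Rax locus, so that GFP reports Rax expression. Day 0 is the day on which 4500 dissociated mESCs were plated per well in GMEM with 1.5% knockout serum replacement (KOSR) and its libraries carry the labels ESC and no treatment. The study's methods name a chemically defined medium without growth factors for its first organoids, so the medium is not settled by the sources. The maintenance medium held LIF, and none is named for differentiation. Matrigel was added at 2% on day 1, which the day 0 cells did not receive. Samples came from pools of 24 organoids, dissociated and sorted for live single cells, and on day 5 also by GFP. Because the gate was set for cell yield, positive cells spanned a range of brightness and part of the dim cells were sorted as negative. With 1 cell line, no difference between lines can be seen. The GFP-negative cells of day 5 and the days between serve to place the differences between the end points, and since all 24 libraries entered the filter and the fit, they also bear on which genes were tested and on the p-values.

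Mouse ESCs are held in the naive state by a network around Pou5f1, Sox2, Nanog and Esrrb that LIF signalling through STAT3 feeds, and on leaving it they pass through a formative state marked by Fgf5, Otx2 and the de novo DNA methyltransferases. The eye field is the patch of anterior neural plate in which Rax, Pax6, Lhx2, Six3 and Six6 are expressed together, and it bulges outwards as the optic vesicles. The vesicle is then divided into neural retina, pigmented epithelium and optic stalk, with Mitf, Vax and Pax2 genes among the regulators of that division.

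The files held 49705 entries, of which 21005 reached 10 normalized counts in at least 3 of the 24 libraries and were tested. The estimated depth of the 6 libraries was 37100000 to 49700000 reads. Day 0 replicate 1 stood apart from its group: its Spearman correlation with replicates 2 and 3 over the tested genes was 0.953 to 0.954, against 0.988 between those 2 and 0.985 to 0.991 among the day 5 GFP-positive libraries. It was higher than the mean of the other 2 by over 1.5 on the log2 scale at 1359 of 21005 genes and lower at 1563. The deviation moved with transcript length: over protein-coding genes ranked by their longest listed transcript, its median was 0.43 in the 4123 shortest and -0.49 in the 4123 longest, whereas replicate 2 minus replicate 3 gave 0.04 and 0.06. RNA of the mitochondrial chromosome made up 6.04% of its counts, against 2.4% and 2.28% in replicates 2 and 3 and 1.97% to 3.64% on day 5. The part of RNA quality in this deviation was not tested. Each result is therefore given with and without that library where it matters.

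Markers of both labelled states were where the labels place them. Summed over Pou5f1, Nanog, Zfp42 and Esrrb, normalized counts were 82077 to 92695 in the day 0 libraries and 238 to 307 in the GFP-positive cells. The sum over Rax, Pax6, Lhx2, Six3 and Six6 was 297 to 495 on day 0 and 54804 to 57307 on day 5. Rax, on whose reporter the day 5 cells were sorted, gave a mean of 8608 of the day 5 sum, and that part is no check. The summed markers of 9 other cell types (4 genes each, 3 for 2-cell-like cells) were no higher in the GFP-positive cells than on day 0, except for telencephalon (5830 to 7563 on day 5 against 41.2 to 66.9 on day 0, with Emx2, which the optic vesicle also expresses, among its genes) and endothelium, where Kdr alone gave the higher sum (652 to 781 against 271 to 352) while Cdh5 and Tie1 fell and Emcn stayed under a mean of 10 in both groups. The hypothalamus sum overlapped between the groups, at 30.7 to 47.4 on day 5 and 31.3 to 57.9 on day 0, with Sim1 called higher and Nkx2-4 lower. The midbrain and hindbrain sum fell with En2 (mean 1114 on day 0 and 119 on day 5). In that sum En1 (85.1 and 306) and Pax7 (11.1 and 99.9) were called higher. Whether other cells in the gate add to any result was not tested. In bulk samples, fewer cells of a type and less RNA per cell cannot be told apart.

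All 14 tested naive pluripotency factors, all 12 of the 2-cell-like genes (several of them near-identical copies) and 14 of 15 germline genes fell over the course. All 10 listed eye-field factors (Tbx3 was counted as naive), 20 of 28 optic vesicle genes and 23 of 26 neural progenitor genes rose. With limma and Benjamini-Hochberg adjustment, 2360 of 21005 tested genes rose (11.2%) and 3140 fell (14.9%), the shares against which the count of each gene list is to be read. Genes were called at adjusted p < 0.001 where the log2-fold-change exceeded 1.5 in size. Fitted on the 6 libraries alone, 1371 genes rose and 1944 fell. After quantile normalization 2710 rose and 2618 fell, so the excess of falls depends on the normalization. Without day 0 replicate 1 the counts were 2406 (11.5%) and 3104 (14.8%), of which 2105 and 2861 were calls with it, and 0 genes were called in opposite directions. Genes that fell held 9.12% to 10.4% of the counts of day 0 libraries and 1.81% to 1.91% of those on day 5, and genes that rose went from 1.35% to 1.57% up to 9.03% to 9.31%. The largest falls were more numerous than the largest rises: 626 genes had a log2-fold-change under -5 and 188 one over 5. A mean under 10 normalized counts on day 5 was found for 1562 of the genes that fell, and a mean under 10 on day 0 for 542 of those that rose. By class, 2054 of 16508 protein-coding genes rose and 2405 fell, 247 of 2548 lncRNAs rose and 446 fell, and 39 of 1518 pseudogenes rose and 255 fell. The 3 libraries of each group did not overlap for 12349 genes (58.8%), among them 2358 of those that rose and 3132 of those that fell. Fold changes are on the log2(normalized count + 1) scale, which understates changes of low genes. The median over all genes was -0.06 there and 0.08 after quantile normalization, a shift of 0.15 to keep in mind for small differences.

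**Figure D1:**
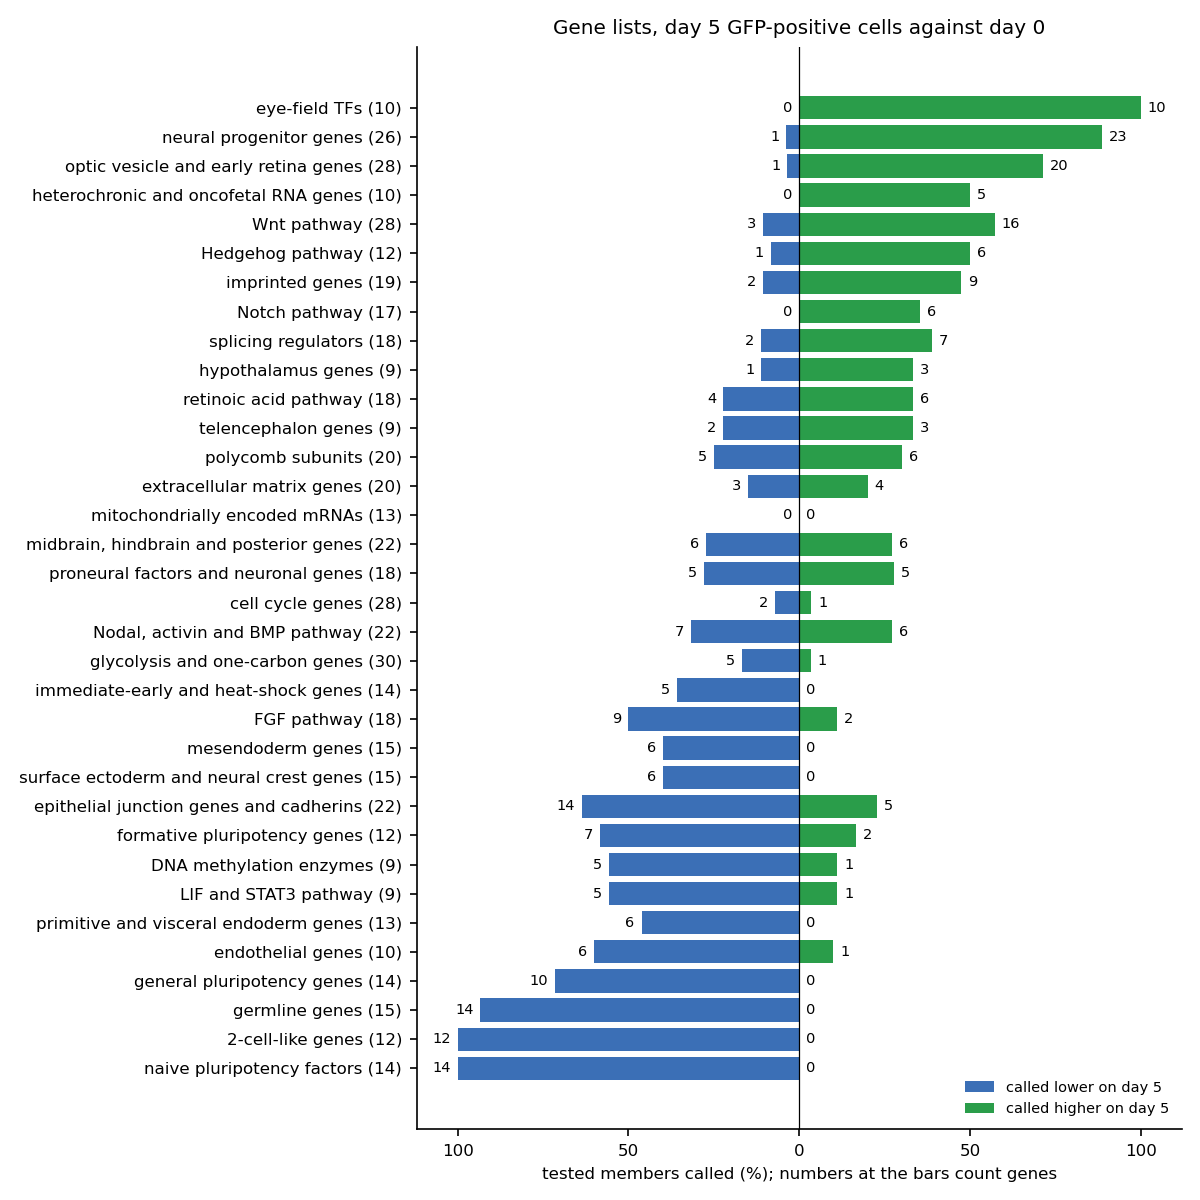
Share of the tested members of each gene list (number in brackets) called lower, to the left, or higher, to the right, in day 5 GFP-positive cells against day 0, with the number of genes called printed at each bar. The eye-field, neural progenitor and optic vesicle lists lie at the top with 10 of 10, 23 of 26 and 20 of 28 members higher, and the naive, 2-cell-like and germline lists at the bottom with 14 of 14, 12 of 12 and 14 of 15 lower.

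All 14 naive pluripotency factors fell, and each did so without day 0 replicate 1 as well. Their median log2-fold-change was -7.54, and their summed counts went from 81169 to 104759 on day 0 to 576 to 758. Nanog, a homeodomain factor of the naive network, was at 16790, 13467 and 11108 on day 0 and at 64.4, 78.6 and 50.9 in the GFP-positive cells. The groups lay far apart (log2-fold-change -7.72 ± 0.20, SE, limma with Benjamini-Hochberg adjusted p = 1.1e-17). Zfp42, also known as Rex1 and used as a marker of the naive state, fell from 27036, 21804 and 19492 to 70.5, 84.5 and 64.2. The orphan receptor gene Esrrb stood at 10088, 20832 and 16116 on day 0 and 39.6, 60.6 and 66.5 on day 5. Replicate 1 was the lowest of its group for Esrrb and the highest for Nanog and Zfp42, and the groups did not overlap. Nr0b1, encoding the nuclear receptor DAX1, was among the largest falls at 3705, 4439 and 3920 against 1.82, 3.96 and 7.24, a log2-fold-change of -9.69 ± 0.43. The smallest falls of the list were those of Tbx3 (-4.55 ± 0.39, or -5.15 without replicate 1) and Klf5 (-5.15 ± 0.31), and these 2 genes had the widest ratio of highest to lowest day 0 library in the list, with 1356, 5108 and 4435 for Tbx3.

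Of 14 general pluripotency genes, 10 fell and 4 did not pass the threshold (median -8.52). Pou5f1, which encodes Oct4, was even within each group, at 38139, 36593 and 35361 on day 0 and 63.7, 82.8 and 83.7 on day 5 (log2-fold-change -8.89 ± 0.18, limma with Benjamini-Hochberg adjusted p = 5.1e-19). Dppa5a, an RNA-binding protein gene, fell from 84121, 49196 and 50324 to 81.8, 121 and 155. Dppa2, which with Dppa4 opens chromatin at early embryonic genes, had the largest fall of all genes named by rule, from 7796, 9149 and 8363 to 7.29, 7.91 and 0. That log2-fold-change of -10.97 ± 0.67 rests on values near 0 on day 5 and was -9.83 with a pseudocount of 5 and -9.94 without day 5 replicate 3. The genes that were not called were Sox2 (-0.87 ± 0.14), Sall4 (-1.44 ± 0.11), Trim71 (-0.84 ± 0.14) and Sall1 (-0.89 ± 0.16). Sox2, shared by pluripotent and neural cells, was at 14414, 15854 and 11645 on day 0 and 7888, 7115 and 7689 on day 5, so the groups did not overlap although the fold was below the threshold. Sall4 lay at the threshold and was called lower without day 0 replicate 1 (-1.51) or replicate 3 (-1.52).

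**Figure D2:**
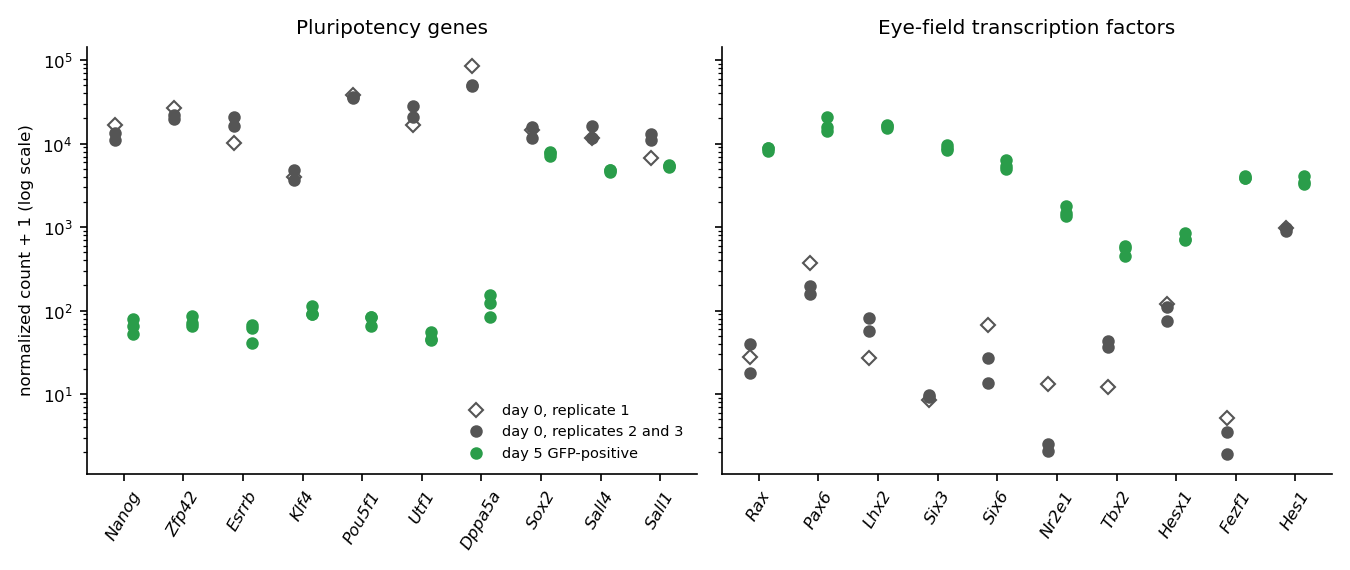
Normalized count + 1 on a log axis in each of the 6 libraries for 10 pluripotency genes (left) and the 10 eye-field transcription factors (right). The open diamond is day 0 replicate 1. Sox2, Sall4 and Sall1 stay within 1 order of magnitude, whereas Nanog and Pou5f1 end between 50.9 and 83.7, and Hes1 starts from 904 to 983 on day 0.

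Formative genes split, with 7 of 12 lower and 2 higher (median -1.92). Otx2, a homeobox gene of the formative state and of forebrain and eye, rose from 3303, 3927 and 3350 to 16363, 20505 and 16990 (log2-fold-change 2.35 ± 0.10). Fgf5, the classical mark of the formative state, fell from 329, 609 and 478 to 16.2, 7.99 and 9.55. Between the end points it had a peak, with group means of 4733 on day 2, 5267 on day 3 and 259.5 in the GFP-positive cells of day 4. Pou3f1 had the same shape, from a mean of 2618 on day 0 over 10464 on day 2 to 432. Sox4 was the other gene to rise, at a log2-fold-change of 1.91 ± 0.26. It was at 1150, 4019 and 3077 on day 0 and lost its call without replicate 1 (1.37). Over all genes, 118 of the 3140 that fell (3.76%) and 55 of the 2360 that rose (2.33%) had a group mean in between that exceeded both end points by over 1.5 on the log2 scale, against 3.4% of the 15505 genes not called. The gene for claudin 6 (Cldn6, mean 1790 on day 0 and 8803 on day 3) and Foxd3 (1111 on day 0 and 4061 on day 2), a forkhead factor of pluripotent and neural crest cells, were among those passing through such a peak.

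The 2-cell-like genes, which mark a rare state of ESC cultures resembling the early embryo, all fell (12 of 12 tested), and their summed counts went from 8011 to 23151 on day 0 to 4.12 to 54.2. Zscan4f, of a zinc finger family switched on in the 2-cell embryo, was at 6840, 2370 and 2548 on day 0 and 0, 0.831 and 15.2 on day 5. Zscan4c was at 4654, 1169 and 1270 on day 0 and 0, 0.986 and 15.4 on day 5. Day 0 replicate 1 was the highest of its group for both genes, and on day 5 replicate 3 was. The log2-fold-change of Zscan4c was -9.22 ± 0.95, and it was -8.58 without day 0 replicate 1, -8.38 without day 5 replicate 1 and -10.40 without day 5 replicate 3. For Zscan4f these 4 values were -10.13 ± 0.93, -9.63, -9.31 and -11.32. The members of the Zscan4 cluster are near-identical copies whose reads may be shared, so their single values are uncertain, and Zscan4-ps3, Zscan4e, Zscan4a and Zscan4d, also among the 12 largest falls, cannot be counted as separate observations. The 12 of 12 therefore holds fewer separate observations than 12. Tcstv3 was listed at 0 in all GFP-positive libraries and is given no fold. The median over the 11 other members was -8.59.

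Of 15 germline genes 14 fell (median -4.82), with Sycp1 (-1.52 ± 0.37) not called, though it was called lower without day 0 replicate 3 (-1.84). Dazl, an RNA-binding protein of germ cells, was at 842, 744 and 733 on day 0 and 0.909, 3.92 and 2.71 on day 5. Tex19.1, which guards the germline against transposons, was at 3419, 3938 and 4047 on day 0 and 44.1, 27.2 and 36.7 on day 5. Hormad1, a protein of the meiotic chromosome axis, was at 3559, 794 and 759 on day 0 and 4.55, 1.99 and 0 on day 5. Dazl and Tex19.1 were even over the day 0 libraries, whereas Hormad1 was far higher in replicate 1 than in the other 2, without which its log2-fold-change of -8.98 ± 0.60 became -8.25. Without day 5 replicate 3 it was -8.31. Sycp3, of the synaptonemal complex, varied over day 0 at 4320, 346 and 388, and its log2-fold-change of -2.98 ± 0.61 became -1.80 without replicate 1 and -3.62 without replicate 2, and its call was lost in 2 of the 6 fits that left out a library, those without day 5 replicate 1 or 3. Stra8, the retinoic acid target that starts meiosis, was at 2543, 1492 and 1835 on day 0 and 0, 3.7 and 0 on day 5 with group means of 127 on day 1 and 25.7 on day 2 between them.

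Others of the 12 largest falls were of several kinds. Lefty2, a Nodal antagonist, fell from 9269, 10912 and 8944 to 7.39, 8.89 and 4.09, a log2-fold-change of -10.33 ± 0.34. Cphx3, of a homeobox family of the early embryo with close copies, was at 1930, 1632 and 1592 on day 0 and listed at 0 in the 3 GFP-positive libraries. The processed pseudogene Gm8038 and the transcribed processed pseudogene Zfp640 were at 1190, 1111 and 1045 and at 1109, 953 and 1253 on day 0 and at most 0.988 and 2.83 on day 5.

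All 10 listed eye-field transcription factors rose, with a median log2-fold-change of 7.94. The list differs from the study's canonical set, which holds Otx2 and Tbx3 but not Tbx2, Hesx1, Fezf1 or Hes1. Otx2, counted here as formative, rose, and Tbx3, counted as naive, fell from a mean of 3633 to 134.7. Rax was at 26.5, 39.2 and 16.9 on day 0 and 8827, 8075 and 8921 in the GFP-positive cells, a difference that the sort on the Rax reporter itself bears on. Six3, a repressor of Wnt genes in the anterior neural plate, rose from 7.54, 8.2 and 8.63 to 9559, 8461 and 8811 (log2-fold-change 9.94 ± 0.25, limma with Benjamini-Hochberg adjusted p = 1e-17). Pax6, the paired-box factor needed for eye formation, stood at 367, 156 and 195 on day 0 and 15803, 20619 and 14217 on day 5. The 3 libraries of each group were close to each other for Six3. On day 0 Rax ranged from 16.9 to 39.2, and for Pax6 day 0 replicate 1 was the highest of its group. Lhx2, a LIM-homeobox gene needed for the vesicle, rose from 26.4, 81 and 55.6 to 16154, 15246 and 16488. Six6, expressed in retina and pituitary, rose from 67, 12.7 and 25.7 to 5379, 4904 and 6366, by 7.56 ± 0.46, or 8.17 without replicate 1. Fezf1, a zinc finger repressor of the forebrain, had the largest rise of all genes named by rule, from 4.19, 2.53 and 0.888 to 3889, 4108 and 3879 (log2-fold-change 10.25 ± 0.44). Nr2e1 (8.54 ± 0.50, or 9.38 without replicate 1), which keeps neural progenitors dividing, and Tbx2 (4.30 ± 0.44), of dorsal retina, also rose from low levels. Hesx1 (2.93 ± 0.19) and the Notch target Hes1 (1.90 ± 0.12) had the smallest folds of the list, Hes1 from a day 0 level of 983, 979 and 904.

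To show the sequence upstream of genes at both ends, the 250 bases before the start of 5 of them are given 5′ to 3′ from RefSeq (GRCm38.p6), with CG dinucleotides in capitals, since promoters rich and poor in CG differ in DNA methylation. Nanog (chr6:122707239-122707488, plus strand), Stra8 (chr6:34920698-34920947, plus strand) and Dazl (chr17:50293621-50293870, minus strand) fell, and Six3 (chr17:85620584-85620833, plus strand) and Six6 (chr12:72939632-72939881, plus strand) rose.
Nanog: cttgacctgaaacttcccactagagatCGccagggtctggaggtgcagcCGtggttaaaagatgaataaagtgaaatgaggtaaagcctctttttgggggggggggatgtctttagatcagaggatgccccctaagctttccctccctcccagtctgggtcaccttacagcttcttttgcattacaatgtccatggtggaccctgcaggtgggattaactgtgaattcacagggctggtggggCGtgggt
Stra8: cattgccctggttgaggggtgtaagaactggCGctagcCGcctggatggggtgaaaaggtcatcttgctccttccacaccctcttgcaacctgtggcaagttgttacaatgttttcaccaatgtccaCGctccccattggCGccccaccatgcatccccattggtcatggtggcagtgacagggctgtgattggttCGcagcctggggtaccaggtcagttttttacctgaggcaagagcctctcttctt
Dazl: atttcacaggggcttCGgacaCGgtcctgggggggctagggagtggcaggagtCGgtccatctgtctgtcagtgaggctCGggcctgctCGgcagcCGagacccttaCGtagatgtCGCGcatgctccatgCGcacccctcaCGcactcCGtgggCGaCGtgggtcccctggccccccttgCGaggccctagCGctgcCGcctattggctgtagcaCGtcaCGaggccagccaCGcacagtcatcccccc
Six3: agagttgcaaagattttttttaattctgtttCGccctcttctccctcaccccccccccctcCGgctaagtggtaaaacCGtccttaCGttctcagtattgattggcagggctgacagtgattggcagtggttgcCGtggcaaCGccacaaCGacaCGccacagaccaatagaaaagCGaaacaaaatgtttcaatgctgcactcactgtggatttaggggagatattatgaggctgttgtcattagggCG
Six6: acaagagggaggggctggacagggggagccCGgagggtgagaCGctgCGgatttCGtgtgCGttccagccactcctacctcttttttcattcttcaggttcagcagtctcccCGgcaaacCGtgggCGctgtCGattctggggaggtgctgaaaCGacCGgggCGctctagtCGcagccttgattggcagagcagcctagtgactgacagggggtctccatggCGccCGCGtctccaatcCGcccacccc
The counts of CG were 3 for Nanog, 5 for Stra8, 20 for Dazl, 10 for Six3 and 17 for Six6, against a median of 6 over all 32851 windows of this kind in the table, whose quartiles were 2 and 16. Both genes that rose lay above the median, and of those that fell Dazl did and the other pair did not. These 5 genes were picked and not drawn by a rule, so their counts give no comparison of rising and falling genes. The octamer-like word ATGCAAA, searched on both strands, was in 4.12% of all windows and in Nanog alone of these 5, on the minus strand from 75 bases before the start. Nanog has 2 listed starts, of which the more upstream is shown. A match is a description of letters, not of a bound site.

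Among 28 tested optic vesicle and early retina genes 20 rose and 1 fell (median 3.29), and the counts were the same without day 0 replicate 1. Pax2, of ventral vesicle and stalk, rose from 6.3, 34.3 and 12 to 4613, 4363 and 4160. Nr2f1 and Nr2f2, nuclear receptors of the optic vesicle, had log2-fold-changes of 8.45 ± 0.46 and 6.79 ± 0.38, and that of Nr2f1 was 9.04 without replicate 1. Mitf, the regulator of pigmented epithelium, rose from 128, 219.8 and 199 to 594, 657 and 803, while the pigment gene Pmel was at 215, 353 and 221 on day 0 and 236, 227 and 209 on day 5. Those Pmel ranges overlapped, and Dct, another pigment gene, was too low to be tested (at most 24.6). Aldh1a3, the retinoic acid enzyme of ventral retina, rose from 77.1, 184 and 166 to 893, 808 and 944. Crx, known from photoreceptor precursors, rose from 6.52, 3.55 and 4.97 to 178, 140.5 and 110.3. Cyp26a1, which breaks down retinoic acid, was the only member to fall (-3.69 ± 0.54), from 998, 122 and 127 to 12.8, 25.8 and 19, and without replicate 1 it fell by 2.69.

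The 12 largest rises held Fezf1, Six3, Nr2e1 and Nr2f1 and 8 more genes. Mab21l1 and Mab21l2, a pair needed for eye growth, rose from 0, 3.8 and 1.77 to 1680, 1469 and 1658 and from 11.2, 15.2 and 8.88 to 4282, 4797 and 4583, and the log2-fold-change of Mab21l1 was 9.40 ± 0.43, or 8.78 without day 0 replicate 1. Emx2, a homeobox gene of dorsal forebrain and optic vesicle, rose from 16.7, 0.779 and 0.546 to 1970, 3685 and 1481, and its log2-fold-change of 9.24 ± 0.66 became 10.38 without the first day 0 library and 8.62 without the third. Irs4, an adaptor of insulin and IGF signalling, rose from 34.9, 38 and 41.7 to 17923, 15883 and 20271. Lmo3, a LIM-only cofactor, Nlgn1, a synaptic adhesion gene, and Cdh20, a cadherin, rose by 9.66 ± 0.31, 8.72 ± 0.50 and 8.47 ± 0.31, with Cdh20 at 7.88 without that library. Six3os1, transcribed antisense to Six3, was at 10, 13.7 and 14.5 on day 0 and 14619, 13930 and 14355 on day 5. Whether the counting used strand is not given in the sources used here, so reads over sequence shared with Six3 may be counted for either gene. The entries were not the same signal, since their means moved apart between the GFP-positive cells of days 4 and 5. Six3os1 went from 7266 to 14301 and Six3 from 12815 to 8944.

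Of 26 neural progenitor genes 23 rose and 1 fell (median 3.22). Sox3, a SoxB1 partner of Sox2, rose from 145, 352 and 162 to 6496, 5379 and 6010, and Sox11, of the SoxC group, rose by 3.94 ± 0.21. Crabp2, which carries retinoic acid to the nucleus, rose from 826, 238 and 234 to 15416, 17451 and 14418, by 5.45 ± 0.30, or 6.05 without replicate 1. Prtg, an adhesion protein of the early neural tube, rose by 3.46 ± 0.20 to 29685, 28957 and 32806. Vim, the intermediate filament gene of progenitors, went the other way, from 11934, 10221 and 8141 to 2737, 2696 and 2394, and Fabp7 (1.11 ± 0.45) and Ncam1 (0.85 ± 0.17) were not called.

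Genes of neurons did not move one way: of 18 tested, 5 rose, 5 fell and 8 were not called (median 0.64). Dll1, the Notch ligand of newly committed cells, rose to 1229, 1277 and 1056. Tubb3, a tubulin used as a neuron marker, fell from 4640, 5795 and 4791 to 1759, 1567 and 1739 and lost its call without day 0 replicate 2 (-1.48). Stmn2, another neuron marker, fell from 8548, 4112 and 4070 to 778, 951 and 757. Dcx was at most 29.5 in any of the 6 libraries.

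The counts of the lists of other lineages stand against 11.2% of all tested genes higher and 14.9% lower. Of 15 mesendoderm genes none rose and 6 fell (median -1.14). Of 13 primitive and visceral endoderm genes none rose and 6 fell (median -1.34). Of 15 surface ectoderm and neural crest genes none rose and 6 fell (median -0.91). Of 10 endothelial genes 1 rose, the VEGF receptor gene Kdr (2.45 ± 0.41), and 6 fell (median -2.41), or 5 without replicate 1, when Flt1 lost its call (-1.41). Gata6, a primitive endoderm factor, fell from 789, 868 and 646 to 25.4, 60.8 and 31.7, and Gata4 fell by 3.51. T, the brachyury gene, was at 73.6, 89.3 and 60.8 on day 0 and 69.3, 80.6 and 58.1 on day 5, and the ranges overlapped. Without day 0 replicate 1, Ttr, a transport protein gene of endoderm, was called higher (2.42). That library held 100.3 and the other 2 at most 2.67, against 9.16, 24.1 and 27.1 on day 5. Of 22 midbrain, hindbrain and posterior genes 6 rose and 6 fell, and their median of -0.41 was 0.00 after quantile normalization. En2 and Gbx2, genes at the midbrain to hindbrain border, fell by 3.20 and 5.06, and Wnt1 (4.19, 13.9 and 5.33 against 302, 387 and 289.5) and Pax7 (10.5, 11.7 and 11.1 against 88.3, 148 and 62.9) rose from low levels. Of 9 hypothalamus genes 3 rose and 1 fell (median 1.15), with Fgf10 (1.51) also called higher without replicate 1, and of 9 telencephalon genes 3 rose and 2 fell (median 0.25).

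Within each signalling list some members were called and others were not. In the LIF and STAT3 list 5 of 9 fell and 1 rose (median -1.80). The receptor gene Lifr fell from 2574, 3006 and 3151 to 380.5, 339 and 365 and the feedback target Socs3 from 3933, 2411 and 2107 to 376, 366 and 399, while Il6st (-0.90 ± 0.18) and Jak1 (0.30 ± 0.09), the shared receptor chain and its kinase, were not called. Socs3 was already at a mean of 418 on day 1. In the FGF list 9 of 18 fell and 2 rose (median -1.70), and the phosphatase gene Dusp4 joined those that fell without replicate 1 (-1.59). Fgf4, the ligand of ESCs, fell from 5751, 7655 and 6197 to 21.3, 15.3 and 12.4, and the ERK targets and feedback genes Spry2 (-2.15 ± 0.10), Spry4 (-6.47 ± 0.17), Etv4 (-5.50 ± 0.27), Etv5 (-4.15 ± 0.22) and Dusp6 (-2.62 ± 0.15) fell too. The feedback genes Spry1 (0.04 ± 0.11), Spred1 (-0.12 ± 0.23) and Spred2 (-0.90 ± 0.18) were not called. Of the receptors, Fgfr2 (2.35 ± 0.13) and Fgfr3 (2.09 ± 0.27) rose, Fgfr4 (-2.31 ± 0.26) fell, and Fgfr1 was not called at 0.75 ± 0.20.

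In the Nodal, activin and BMP list 6 of 22 rose and 7 fell (median -0.16). Those that fell were Nodal itself, from 2256, 4535 and 3737 to 18.2, 13.8 and 23.5, its co-receptor Tdgf1 (-9.18 ± 0.39), the antagonists Lefty1 (-8.88 ± 0.25) and Lefty2, Gdf3 (-8.85 ± 0.40), Inhbb (-7.91 ± 0.48) and Smad7 (-3.57 ± 0.27). Those that rose were the BMP ligand Bmp7, from 269.5, 256 and 194 to 3722, 3538 and 3825, its receptor Bmpr1b (2.88 ± 0.21), Smad9 (3.27 ± 0.33), the targets Id2 (3.88 ± 0.37, or 4.62 without replicate 1) and Id3 (3.30 ± 0.17), and Fst, an antagonist of activin and BMP. Fst varied over day 0 at 754, 139.7 and 89.1, and of the 6 fits that left out a library it kept its call in the one without day 0 replicate 1, where its log2-fold-change of 2.32 ± 0.50 became 3.23. Bmp4 was at 1652, 2328 and 2212 on day 0 and 1570, 1383 and 1331 on day 5 and was not called (-0.52 ± 0.20). Without replicate 1 the BMP antagonist Nog (3.51) and the target Id1 (1.61) were called higher too.

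Of 28 Wnt pathway genes 16 rose and 3 fell (median 1.93). The receptors Fzd1 (5.68 ± 0.25), Fzd2 (3.02 ± 0.22), Fzd5 (1.98 ± 0.23) and Fzd8 (2.81 ± 0.14) rose, and Fzd1 did so from 134, 139 and 100.3 to 6634, 5450 and 7099. Fzd7 (-0.15 ± 0.11), Fzd10 (-1.04 ± 0.23) and the co-receptor gene Lrp6 (0.81 ± 0.14) were not called. Of the secreted antagonists, Sfrp1 rose from 757, 937 and 823 to 18084, 18317 and 18539 (limma with Benjamini-Hochberg adjusted p = 5.1e-19), Sfrp2 rose by 2.29 ± 0.15 and Dkk1 by 3.22 ± 0.19, while Sfrp5 fell from 82.3, 106 and 83.5 to 14.6, 11.9 and 8.14 (log2-fold-change -2.90 ± 0.25). Feedback targets Axin2 (1.84 ± 0.21), Nkd1 (3.86 ± 0.19) and Sp5 (2.87 ± 0.44) rose and Notum (-5.64 ± 0.24), another feedback antagonist, fell from 1560, 3330 and 3120 to 39, 51.6 and 61.7. Ctnnb1, the β-catenin gene, was not called, with day 0 replicate 1 at 75787 and the other 5 libraries at 34424 to 57490. In the Notch list 6 of 17 rose and none fell (median 0.73), among them the fringe gene Lfng (3.73 ± 0.16), and Notch1 was at 642, 3818 and 4078 on day 0 and 3674, 3440 and 3595 on day 5, so that its fold of 0.73 ± 0.41 turned to -0.15 without replicate 1.

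Retinoic acid genes gave 6 higher and 4 lower of 18 (median 0.73). The retinal dehydrogenase genes Aldh1a1 (4.63 ± 0.46), Aldh1a2 (3.41 ± 0.42) and Aldh1a3 (2.71 ± 0.30) rose, as did the carrier Crabp1 (1.52 ± 0.24) and the retinol receptor Stra6 (2.36 ± 0.17). Rdh10 (0.62 ± 0.19), the retinol dehydrogenase of the same synthesis route, was not called. Crabp1 kept its call in 3 of the 6 fits that left out a library, losing it without day 0 replicate 2 or 3 or day 5 replicate 3. Rarg, the receptor of the epiblast, fell from 7625, 16513 and 12224 to 930.1, 1170 and 867, and Dhrs3, which returns retinal to retinol, fell by 4.26. Of 12 Hedgehog genes 6 rose and 1 fell (median 1.58). The membrane components Smo (2.82 ± 0.15), Gas1 (4.65 ± 0.22), Cdon (2.60 ± 0.22) and Boc (2.04 ± 0.20) rose, and the receptor gene Ptch1 (-0.39 ± 0.17) was not called. The target Gli1 was at 721, 1952 and 2016 on day 0 and 647, 512 and 558 on day 5, not called with all libraries (-1.31 ± 0.25) and called lower without replicate 1 (-1.80).

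Within families of chromatin, adhesion and splicing genes, members moved in opposite directions. Of 9 DNA methylation enzymes 1 rose and 5 fell (median -1.78). The cofactor Dnmt3l fell from 20700, 18950 and 14666 to 72.3, 64.7 and 73.8, Dnmt3a and Dnmt3b fell by 2.06 and 1.78, and the maintenance genes Dnmt1 (0.26 ± 0.22) and Uhrf1 (-0.12 ± 0.17) were not called. Without day 0 replicate 1 the fold of Dnmt3b was -2.40, and its call was lost only without day 0 replicate 2 (-1.40). Among the oxidases, Tet1 (-2.59 ± 0.32, or -3.22 without replicate 1) and Tet2 (-2.45 ± 0.26) fell and Tet3 rose from 417, 1150 and 946 to 4264, 3461 and 4920. These 3 genes and Dnmt1 all had their lowest day 0 value in replicate 1, and the calls of the Tet genes stood without it. In the fit of the 6 libraries alone, Tet1, Tet3, Dnmt3a and Dnmt3b lost their calls. Among polycomb subunits 6 of 20 rose and 5 fell (median -0.24). The chromobox gene Cbx7, the main one of ESCs, fell from 9430, 16274 and 16312 to 698, 722 and 728, while Cbx2 (2.21 ± 0.20) and Cbx8 (2.52 ± 0.28) rose. Likewise Phc1 fell (-1.76 ± 0.20) and Phc2 rose (2.51 ± 0.13). Jarid2 (-1.87 ± 0.25) and Suz12 (-1.54 ± 0.24) of the second complex fell and its catalytic genes Ezh1 (-0.98 ± 0.16) and Ezh2 (0.66 ± 0.15) were not called. Suz12 and the riser Ring1 (1.58 ± 0.20) lay close to the threshold, with their calls kept in 3 and 4 of the 6 fits that left out a library. Suz12 lost its call without day 0 replicate 2 or 3 or day 5 replicate 2, and Ring1 without day 0 replicate 1, when 5 polycomb genes rose, or day 5 replicate 2. Jarid2, Cbx2 and Phc1 lost theirs in the fit of the 6 libraries alone.

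Of 22 epithelial junction genes and cadherins 14 fell and 5 rose (median -2.70), or 4 without replicate 1, when Cdh4 lost its call (1.32). Cdh1 (E-cadherin) fell from 6540, 23498 and 17109 to 123, 159.7 and 178 and Cdh2 (N-cadherin) rose from 694, 901 and 643 to 16644, 19511 and 15822. Cdh3 (P-cadherin) fell by 4.86, and Cdh6 (5.49 ± 0.24) and Cdh11 (6.52 ± 0.43) rose. Epcam, an adhesion protein of epithelia and ESCs, was tight within groups at 8091, 7818 and 6596 on day 0 and 141, 163 and 119 on day 5. The claudin genes Cldn3, Cldn4, Cldn6 and Cldn7 fell, while the scaffold gene Tjp1 (0.34 ± 0.14) was not called and the polarity gene Crb2 rose from 104, 185 and 134 to 5954, 4654 and 5872. The epithelial splicing regulators Esrp1 (-4.65 ± 0.25) and Esrp2 (-5.20 ± 0.49, or -4.44 without day 5 replicate 2) fell with the junction genes. In the splicing list 7 of 18 rose and 2 fell (median 0.07), and Nova2 kept its call in 3 of the 6 fits that left out a library, losing it without day 0 replicate 1 (1.33), day 0 replicate 3 (1.47) or day 5 replicate 1 (1.46). Ptbp2, the neural paralogue, rose from 2164, 2074 and 2159 to 6662, 7694 and 6862, while Ptbp1, which represses it in other cells, was at 25816, 47169 and 39761 on day 0 and 32486, 34036 and 31861 on day 5 and not called. Celf3 (4.10 ± 0.43), Celf2 (3.00 ± 0.15) and Nova1 (2.33 ± 0.26), regulators of neural exons, rose.

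**Figure D3:**
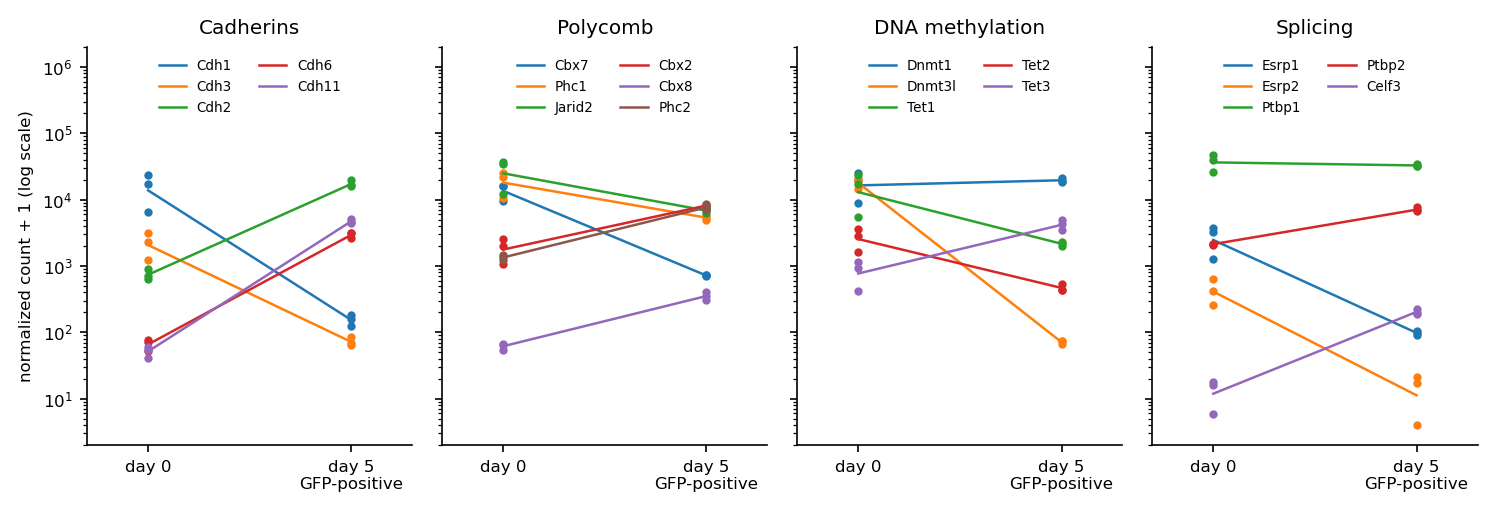
Normalized count + 1 on a log axis in the 3 day 0 and 3 day 5 GFP-positive libraries (points), joined at the geometric means, for members of 4 gene families. In each family some members cross: Cdh1 falls and Cdh2 rises, Cbx7 falls and Cbx2 rises, Tet1 falls and Tet3 rises, and Esrp1 falls and Ptbp2 rises, while Ptbp1 and Dnmt1 were not called.

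Of 28 cell cycle genes (median -0.22) 1 rose and 2 fell: the cyclin Ccnd2, from 513, 1185 and 655 to 6467, 4755 and 5403, against Cdk6 (-2.37 ± 0.30) and the inhibitor Cdkn2a (-5.55 ± 0.40). Mki67, a mark of dividing cells, was at 6100, 14680 and 15063 on day 0 and 21557, 24989 and 20808 on day 5 and not called (1.02 ± 0.22). Of 30 glycolysis and one-carbon genes (median -0.41) 1 rose and 5 fell, and 3 fell without day 0 replicate 1, when Hk2 (-1.93 ± 0.23, then -1.499) and Ldhb (-1.63 ± 0.15, then -1.41) lost their calls. Tdh, the threonine dehydrogenase on which mouse ESCs depend, fell from 6681, 15954 and 14249 to 50.1, 34.3 and 52.5, and Upp1, a uridine phosphorylase, from 33116, 11191 and 11250 to 28.3, 74.1 and 46.8. Of the 13 mRNAs of the mitochondrial genome none was called (median -0.40). The 8 most abundant genes whose 95% interval lay within 0.5 of no change were Hsp90ab1, Gapdh, Eef2, Rpl4, Tuba1b, Rps2, Rpl3-ps1 and Eef1g, out of 1837 such genes. Gapdh was at 272327, 226445 and 192229 on day 0 and 200393, 274735 and 180716 on day 5. Rpl3-ps1 is a processed pseudogene of a ribosomal protein gene and may hold its reads.

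Of 19 imprinted genes, expressed from 1 parental copy, 9 rose and 2 fell, with a median of 1.31. Mest, a hydrolase gene, was at 18521, 11632 and 10290 on day 0 and 209706, 227874 and 220126 on day 5. Ndn and Magel2, neighbours of the Prader-Willi region, rose from 531, 476 and 360.2 to 7367, 6472 and 8438 and from 30.7, 105 and 137 to 1997, 1850 and 1535, and the log2-fold-change of Magel2 was 4.53 ± 0.36, or 3.88 without replicate 1. Grb10, a growth inhibitor, fell from 321, 592 and 487 to 30.9, 38.2 and 31.3, and Snrpn ended near its start (-0.46 ± 0.09) after a mean of 24457 on day 3. Of 10 heterochronic and oncofetal RNA genes 5 rose and none fell (median 1.34). Lin28b rose by 3.04 ± 0.20 whereas its paralogue Lin28a was not called (1.16 ± 0.11), and Hmga2 rose from 1600, 3258 and 2474 to 17433, 20193 and 18769. Dis3l2, the nuclease that degrades uridylated let-7 precursors, kept its call in 2 of the 6 fits that left out a library, and without day 0 replicate 1 the list had 4 genes higher.

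In the matrix list 4 of 20 rose and 3 fell (median -0.55), beside 11.2% and 14.9% of all genes. Col9a1, a collagen of the embryonic eye and cartilage, rose from 2.78, 2.98 and 4.42 to 1410, 1336 and 1611, and Col2a1 from 639, 892 and 876 to 13835, 10406 and 11666. Laminin genes Lama1 (-1.82 ± 0.27) and Lamc1 and the secreted phosphoprotein Spp1 (-8.32 ± 0.36) fell. Of 14 immediate-early and heat-shock genes, which can respond to dissociation, none rose and 5 fell (median -0.74), among them Junb from 997, 1629 and 1457 to 231, 193 and 162 and Ier3 (-3.40 ± 0.31).

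Most genes were on their new side in the GFP-positive cells of day 4. Days 1, 2 and 3 were not sorted by GFP, so time and sorting cannot be told apart in the step to day 4. Taking the first group of the course (days 1, 2 and 3, and the GFP-positive cells of days 4 and 5) whose mean had passed the midpoint between the end points on the log2 scale, the genes that rose numbered 104, 452, 646, 1006 and 152 in that order of groups. For the genes that fell the numbers were 122, 583, 673, 1609 and 153. These are descriptions, and on the linear scale the day with most falling genes moves from day 4 to day 2, with 40, 220, 382, 1314 and 404 genes rising and 479, 1163, 707, 735 and 56 falling. Inhbb was among the earliest falls, with means of 982 on day 0 and 39.4 on day 1. Pou5f1 passed its midpoint in the GFP-positive cells of day 4, at 792 after 23213 on day 3. In the GFP-negative cells of day 4 its mean was 7087. Otx2 had passed its midpoint on day 1, with means of 3526 on day 0 and 9096 on day 1. Six3 had reached 932 on day 3, when Rax was at 115 and Pax6 at 142. A last set passed its midpoint only in the GFP-positive cells of day 5, where means moved from day 4 as follows. Six6 went from 211 to 5550, Tbx2 from 13.3 to 530.2, Mitf from 83 to 685, Aldh1a3 from 78.6 to 882 and Vax2 from 10.9 to 212.

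**Figure D4:**
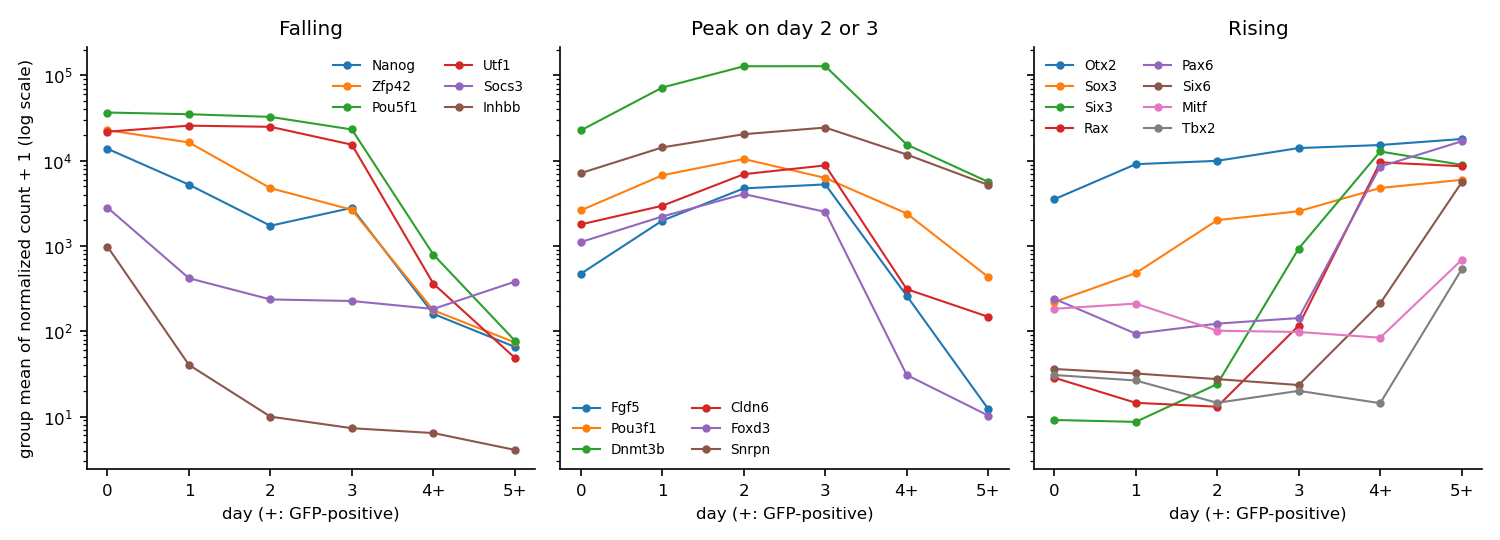
Group means of normalized count + 1 (log axis, 3 libraries per group) over days 0 to 3 and the GFP-positive cells of days 4 and 5 for genes that fell, genes with a peak on day 2 or 3 and genes that rose. Inhbb and Socs3 are down on day 1 and Pou5f1 only in the GFP-positive cells of day 4. Fgf5 reaches 5267 on day 3 and ends at 11.3, and Six6, Mitf and Tbx2 rise last.

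The gate itself was tested on day 5 against the GFP-negative cells of day 5, where 84 of 21005 genes were higher in GFP-positive cells (0.4%) and 968 lower (4.61%), 5.01% in all. The GFP-positive libraries are shared by both contrasts. Rax, whose reporter the gates were sorted on, differed by 4.27 between them, which the sort itself fixed and which is no test. Of the 9 other eye-field factors 5 were also higher than in GFP-negative cells: Pax6 (1.83 ± 0.24), Lhx2 (2.96 ± 0.30), Six3 (2.62 ± 0.25), Six6 (4.97 ± 0.46) and Tbx2 (3.01 ± 0.44). Nr2e1 (1.09 ± 0.50) was not called, nor was Fezf1, whose gate difference of 2.09 ± 0.44 had a limma and Benjamini-Hochberg adjusted p of 0.0017. All 14 naive factors were lower in the GFP-positive gate, and Nanog had a mean of 989.5 in the negative gate. Of the neural progenitor genes that rose from day 0, Meis1 (2.34 ± 0.27) was called higher in the GFP-positive gate and the POU factor genes Pou3f2 (-3.06 ± 0.42) and Pou3f3 (-2.59 ± 0.29) were called lower, whereas Sox11 (0.15 ± 0.21) and Gli3 (0.12 ± 0.19) were not called. The mean of Pou3f2 went from 18.8 on day 0 to 110.2 in the positive gate and 937 in the negative one. Of the midbrain, hindbrain and posterior list 19 of 22 were lower in the GFP-positive gate, among them Pax7 (-2.70 ± 0.31), which was higher than on day 0, but not Wnt1 (-3.17 ± 0.65). Both gates were called in opposite directions against day 0, with the gate difference called as well, for 7 of 21005 genes (0.0333%), of which 3 were list members.

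The lists whose members differed most between day 0 replicate 1 and the mean of the other 2 were the mitochondrial mRNAs (median 1.39 on the log2 scale), the 2-cell-like genes (1.08), the germline genes (1.01), the DNA methylation enzymes (-1.32) and the Hedgehog genes (-1.05). With and without it, all 12 of the 2-cell-like, 14 of 15 germline and 5 of 9 DNA methylation genes were called lower. For the 4123 protein-coding genes with the longest transcripts the median log2-fold-change of day 5 against day 0 was 0.26 with it and 0.09 without, and for the 4123 shortest -0.32 and -0.18, so a slope with transcript length remained between the groups. The part of length in the calls was not tested.

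**Figure D5:**
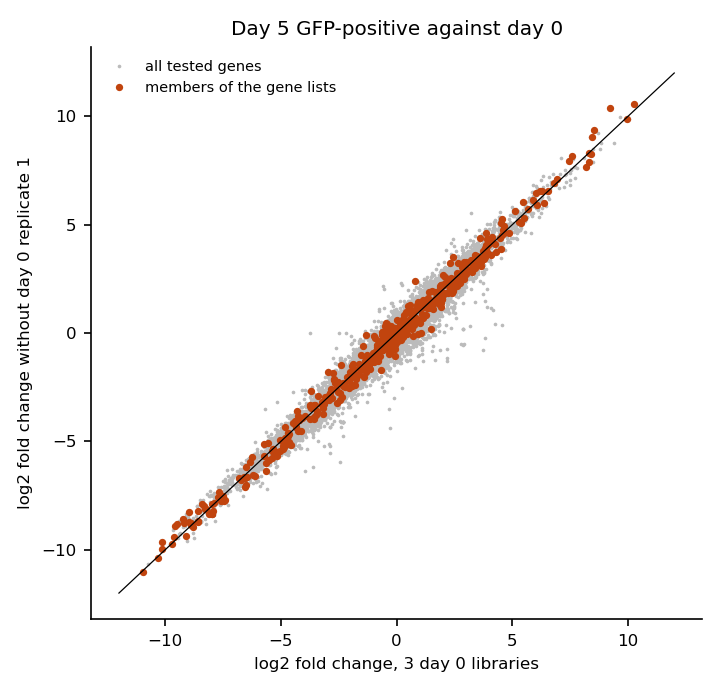
Log2-fold-change of day 5 GFP-positive cells against day 0 with all 3 day 0 libraries (x axis) and without day 0 replicate 1 (y axis), for all 21005 tested genes (grey) and the members of the gene lists (orange). The line marks equal values, and 0 genes were called in opposite directions.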

How the data were processed

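PolyA RNA of 24 libraries (8 groups of 3, from Rx-GFP K/I EB5 cells) was sequenced from TruSeq libraries. The authors quantified reads with kallisto 0.43.1 against mm10 and deposited DESeq2-normalized counts per gene, a scaled signal and not whole counts, next to columns with their own TRUE or FALSE differential calls, which were not used. Of the low values (up to 20 reads), 45.8% to 74.2% per library were whole multiples of 1 read within 0.1, so whole reads could not be recovered and count models were not used. One read was worth 0.895 to 1.39 and totals were 42450322 to 51587535 per library of the 6.

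The 21005 genes that reached 10 in 3 or more libraries were fitted with limma 3.58.1 (R 4.3.3, trend) on log2(value + 1), all 24 libraries sharing the spread, with Benjamini-Hochberg adjustment. Genes were called at adjusted p < 0.001 where the log2-fold-change exceeded 1.5 in size. The p-values measure the spread between the samples, which the study calls biological triplicates. In simulated data of this comparison over 21005 genes, 89.5% of 200 genes changed by 2 on the log2 scale and 97% of 200 changed by 3 were recovered. The changed genes were drawn from those above a minimum mean level, and a gene had the same spread in all groups. Recovery of low genes, or with a library that deviates as day 0 replicate 1 does, was not simulated. Genes were named by rule: list members, the 12 largest rises and 12 largest falls with a mean of at least 1000 in the higher group (groups not overlapping, called also without day 0 replicate 1), and the 8 most abundant ones with a 95% interval within 0.5 of no change. Members and lists were chosen with earlier results of these data known. Alternatives were the pseudocount, filter, trend, 6 libraries only, replicate block, treat, threshold, quantile normalization and leaving out each library. Python 3.11.15, pandas 2.3.3 and matplotlib 3.10.9 were used. Sequences came from RefSeq (GRCm38.p6). Some genes of the lists are not reported here by name.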

Additional observations from a re-analysis of the deposited data

Results flagged for a closer look

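For 7 of 21005 tested genes (0.0333%), 3 of them list members, both gates of day 5 were called in opposite directions against day 0, and the difference between the gates was called itself by limma with Benjamini-Hochberg adjustment. Cdx2, a posterior homeobox gene, differed by -5.39 on the log2 scale between the GFP-positive and GFP-negative cells. Its group means were 70.6 on day 0, 647 in the GFP-negative and 15.2 in the GFP-positive cells. Mixl1, of the primitive streak, differed by -4.22 and Flt1, a VEGF receptor, by -3.93. The calls of Cdx2 and Mixl1 against day 0 were kept in 2 of the 6 fits that left out a library, and that of Flt1 in 5, being lost without day 0 replicate 1 at -1.41. All 3 genes lost that call in the fit of only the 6 libraries, and Cdx2 and Mixl1 also after quantile normalization. The cause was not tested.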

How the results depend on the processing

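Against 2360 genes higher and 3140 lower, the fit of only the 6 libraries gave 1371 and 1944, and limma's treat test against 1.5 gave 986 and 1648. Under treat, list members called higher against day 0 numbered 92, and in the day 5 gate 5 were called higher and 53 lower. All other alternatives stayed within 1.5 times, with 2196 to 2406 higher and 2936 to 3104 lower when 1 library was left out. Same-numbered deviations of day 0 and day 5 GFP-positive samples correlated at -0.119, 0.0134 and -0.113 (0 of 3 best with their own number), and those of the gates of day 5 at 0.0079, -0.075 and 0.147 (1 of 3), so the numbers were not taken as pairs. A replicate block gave 2334 higher and 3111 lower, and 19 list members higher and 143 lower between the gates. After quantile normalization the counts were 2710 and 2618, with more genes higher than lower. Of 228 genes named in the text, 25 lost their call in the fit of the 6 libraries: Dnmt3a, Dnmt3b, Sox4, Cyp26a1, Pou3f2, Cdx2, Mixl1, Kdr, Flt1, Sycp3, Tet1, Tet3, Jarid2, Cbx2, Phc1, Cdh4, Id2, Fst, Fzd5, Axin2, Crabp1, Boc, Nova2, Hk2 and Cdk6. Under treat 43 lost it, and after quantile normalization 8 did: Cdx2, Mixl1, Suz12, Ring1, Crabp1, Dis3l2, Nova2 and Ldhb. With a pseudocount of 5, Mixl1 lost its call and Nog gained one. Values under about 10 limit the precision of the largest folds, which move with the pseudocount. After quantile normalization the log2-fold-change became 0.24 for T, 0.068 for Uhrf1, -0.088 for Spry1, 0.058 for Gapdh, 0.015 for Rpl4, 0.18 for Rpl3-ps1, with the sign turned. When 1 library was left out the sign also turned, with ranges of -0.32 to 0.036 for Pmel, -0.053 to 1.58 for Dcx, -0.24 to 0.038 for T, -0.18 to 0.56 for Dnmt1, -0.45 to 0.097 for Uhrf1, -0.10 to 0.16 for Spry1, -0.27 to 0.11 for Spred1, -0.25 to 0.0069 for Fzd7, -0.15 to 1.19 for Notch1, -0.40 to 0.033 for Ptbp1, -0.26 to 0.044 for Gapdh, -0.21 to 0.16 for Hsp90ab1, -0.067 to 0.22 for Rps2, -0.20 to 0.24 for Rpl3-ps1. These genes were not called, and no gene that was called and named turned its sign. The causes were not tested.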
